A study of Mus musculus with 1989 samples.

Results

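The genes of oxidative phosphorylation were followed through thymocyte development in droplet-based scRNA-seq of the mouse thymus. They were taken by symbol from a table of 8846 genes, as every gene whose name starts with Nduf, Sdha, Sdhb, Sdhc, Sdhd, Uqcr, Cox4, Cox5, Cox6, Cox7, Cox8, Atp5 or mt-. There were 105 such genes of the 8846. They divided into 92 genes of the nucleus and 13 of the mitochondrial genome. Of the nuclear genes, 36 were counted with complex I, 4 with complex II, 8 with complex III, 15 with complex IV (Ndufa4 included), 15 with complex V and 14 as assembly and other factors.

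The cells came from the thymus of male C57BL/6 mice aged 7 weeks, with no treatment or altered gene named, and formed 1 library of 1993 cells with no barcode given more than once. The labels name no animal for a cell, so the library is 1 sample. No test, p-value or standard error was therefore computed between stages, and every interval given covers counting error only. The series also holds scATAC-seq cells, which were not used here.

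The respiratory chain sits in the inner membrane of the mitochondrion. Complex I (NADH dehydrogenase) and complex II (succinate dehydrogenase) pass electrons to ubiquinone, complex III (cytochrome bc1) hands them to cytochrome c, complex IV (cytochrome c oxidase) gives them to oxygen, and complex V (ATP synthase) uses the resulting proton gradient to make ATP. All 13 proteins encoded in the mitochondrial genome are subunits of complexes I, III, IV and V, whereas complex II is encoded wholly in the nucleus. The stages followed here were double-negative cells (DN), immature single-positive cells (ISP), dividing double-positive blasts (DPbla), quiescent double-positive cells that rearrange the T cell receptor alpha chain (DPre), double-positive cells under selection (DPsel) and CD4 or CD8 single-positive cells (CD4sp and CD8sp). T cell development is known for alternating bursts of division, which follow a successful beta chain, with resting phases.

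The members lie on 19 nuclear chromosomes and on the mitochondrial genome, whose length is 16299 bases in GRCm38. Neighbouring genes of the mitochondrial genome overlap, which bears on how far a 3′ tag can be assigned to them. The overlap of mt-Atp8 with mt-Atp6 spans 43 bases at chrM:7927-7969 on the plus strand. It is shown because these genes stood far apart in the table, with mt-Atp8 detected in 36.8% of cells and mt-Atp6 in 100%. Capitals mark the start codon of mt-Atp6.
mt-Atp8 and mt-Atp6 overlap: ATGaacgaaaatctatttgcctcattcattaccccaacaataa
The overlaps of mt-Nd4l with mt-Nd4 (7 bases), of mt-Atp6 with mt-Co3 (1 base) and of mt-Nd5 with mt-Nd6 on opposite strands (14 bases) are shorter. Values of the genes within an overlapping pair are uncertain as far as reads fell where both are annotated. Within the 14 shared bases, reads of mt-Nd5 and mt-Nd6 can be told apart only where strand was used in counting.

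Promoters were searched for the letters of 3 factors known to act on nuclear genes of the respiratory chain, in RefSeq windows of 300 bases (250 before and 50 after the start, build GRCm38.p6). A window was found for 79 of the 92 nuclear members, 76 of them by their own symbol, which gave 85 windows in all. The Nrf1 letters GCGCATGC, on either strand, were in 14.1% of the members' windows, in 2.71% of all 32851 windows and in 5.74% of windows of the table's genes. The Yy1 letters AAGATGGC were in 15.3%, 2.75% and 5.10% respectively. The Ets and Gabpa letters CCGGAAGT were in 5.88%, 3.89% and 9.47%. The Myc E-box CACGTG was in 10.6%, 7.15% and 10.4%, and the TATA letters TATAAA were in 8.24%, 13.6% and 7.21%. These shares are descriptions of letters in a window, and no binding was measured. None of these motifs contains another. The 3 stretches of 150 bases up to the RefSeq start shown here come from members of complexes I to V. They were sought for the Nrf1, Ets and Yy1 letters in turn, among stretches that hold the letters. Members of higher ISP-like over DN-like ratio were taken first, within the GENCODE limit given below, and none was printed for Yy1. From DN-like to ISP-like cells the share of Ndufa11 changed by a factor of 1.43, that of Uqcr11 by 1.29 and that of Uqcrh by 0.796. Capitals mark the motif. The stretch of Ndufa11, at chr17:56717612-56717761 on the plus strand, holds the Nrf1 letters. The stretch of Uqcr11, at chr10:80406822-80406971, holds the Ets letters, and the window of this gene also holds the Nrf1 letters. The stretch of Uqcrh, at chr4:116075071-116075220, holds the Ets letters reversed. Both stretches are on the minus strand.
Ndufa11: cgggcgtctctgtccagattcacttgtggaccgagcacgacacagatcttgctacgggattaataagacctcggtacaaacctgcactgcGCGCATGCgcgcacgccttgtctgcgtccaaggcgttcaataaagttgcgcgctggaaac
Uqcr11: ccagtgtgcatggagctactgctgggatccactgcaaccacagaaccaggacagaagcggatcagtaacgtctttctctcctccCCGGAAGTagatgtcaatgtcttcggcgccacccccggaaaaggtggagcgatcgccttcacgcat
Uqcrh: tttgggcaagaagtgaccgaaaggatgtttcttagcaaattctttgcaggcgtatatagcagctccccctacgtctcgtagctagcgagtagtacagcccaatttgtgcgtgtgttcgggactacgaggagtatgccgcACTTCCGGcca

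The deposited values are log2 values after quantile normalization, without molecule counts. Distinct values within a cell were therefore ranked and the rank taken as a number of steps. All cells were cut down randomly to 1300 steps, and a gene's share was its steps per 10,000 thinned steps. A step is not a molecule, and a gene's steps cannot exceed the number of distinct values in its cell. The median highest step ran from 19 in DPre-like to 53.5 in ISP-like cells, so genes of very high level, such as those of the mitochondrial genome, are held down by a limit that differs between stages. For these genes the share of the summed normalized values (2 to the power of the log2 value, minus 1) is given beside the share of steps. Because the library holds 3′ tags and no transcript lengths were used, a gene's share served to choose which members to describe, and no comparison of level between genes is drawn from it.

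Clusters were built without the members and named from marker lists. They gave 78 DN-like, 154 ISP-like, 348 DPbla-like, 427 DPre-like, 347 DPsel-like cells, together with 244 CD4sp-like and 107 CD8sp-like cells. Another 31 cells were NCL-like (nonconventional lymphocytes) and 36 were APC-like (antigen-presenting cells). A further 2 clusters of 150 and 71 dividing cells stayed unnamed because their best marker scores lay within 0.1 of the next. The summed log2 level of the ISP list was higher in DPbla-like (4.71) than in ISP-like cells (4.11), so the ISP name rests on the contrast among all lists. Cd4 was low in the ISP-like cluster, at a mean log2 of 0.17, and Cd8a was at 1.44. The CD8sp list of 7 genes summed to 4.74 in CD4sp-like cells, where the CD4sp list of 6 genes summed to 3.81. It also reached 7.33 in DPre-like cells, beside 9.63 in CD8sp-like cells. The CD4sp-like clusters had more Cd8a (mean log2 0.80 and 0.78) than Cd4 (0.71 and 0.62), so the CD4sp name also rests on the contrast among all lists. The APC list was clearer, at 21.8 in APC-like cells and between 0.94 and 1.36 in the other named classes. Depth differed strongly. The median step total was 3633 in DN-like cells, 10076 in ISP-like cells, 5264 in DPbla-like cells, 1933 in DPre-like cells, 1973 in DPsel-like cells, 2107 in CD4sp-like cells and 2643 in CD8sp-like cells. The nuclear and mitochondrial sums are therefore compared below first over all cells and then within bins of depth. Shares and ratios of single complexes and single genes are given over all depths only and were not checked at matched depth.

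In shares of thinned steps over all depths, nuclear members were highest in ISP-like cells. The mitochondrial genome was low in ISP-like and DPbla-like cells, whose intervals overlapped. Nuclear members together held 434 of 10,000 thinned steps in DN-like cells (95% interval 422 to 447) and 608 in ISP-like cells (597 to 619), the highest of the 7 stages. They held 476 in DPbla-like cells (469 to 482), 419 in DPre-like cells, 411 in DPsel-like cells, 413 in CD4sp-like cells and 431 in CD8sp-like cells. The spread over single cells was 53.8 (SD, n = 78 cells) in DN-like and 69.3 (SD, n = 154 cells) in ISP-like cells. The genes of the mitochondrial genome held 444 of 10,000 steps in DN-like cells, 312 in ISP-like cells (304 to 320) and 320 in DPbla-like cells (315 to 326). They held 442 in DPre-like cells, 438 in DPsel-like cells, 437 in CD4sp-like cells and 450 in CD8sp-like cells. In cells of 5000 to 10,000 steps the mitochondrial share was higher in ISP-like cells, at 334 (321 to 347), than in DPbla-like cells, at 313 (306 to 320). The ratio of nuclear to mitochondrial steps was thus 0.979 in DN-like cells (0.939 to 1.02), 1.95 in ISP-like cells (1.89 to 2.01) and 1.49 in DPbla-like cells (1.45 to 1.52). In the 4 later stages it lay between 0.938 and 0.958.

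**Figure D1:**
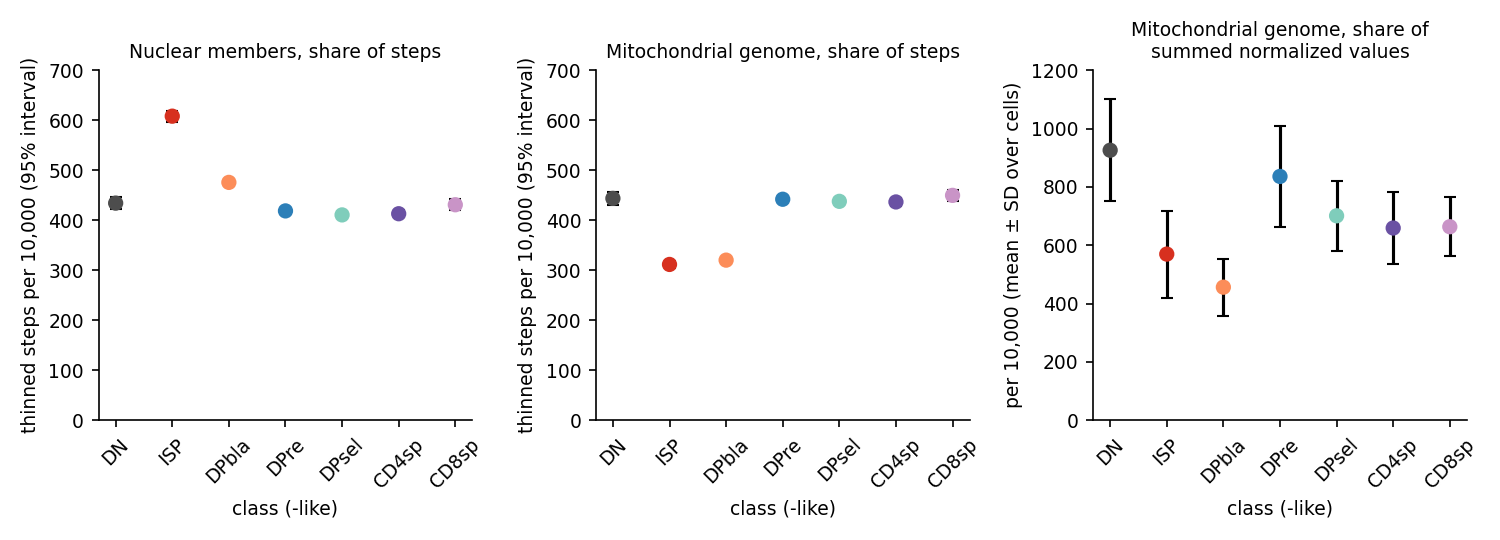
Share of nuclear members (left) and of the mitochondrial genome (middle) in thinned steps per 10,000 with exact 95% Poisson intervals, and share of the mitochondrial genome in summed normalized values (right, mean ± SD over cells), in 7 stages. Over all depths, nuclear members were highest in ISP-like cells at 608. The mitochondrial share of steps was 312 there (304 to 320) and 320 for DPbla-like cells (315 to 326). These intervals overlapped.

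Summed normalized values do not count ranks, but they come from quantile normalization and were not free of depth. In DN-like cells the mitochondrial genome took 1017 of 10,000 at 2000 to 3000 steps and 654 at 5000 to 10,000. The difference was smaller in DPsel-like cells, with 712 at 2000 to 3000 steps and 666 at 3000 to 5000. Over all depths the mitochondrial genome took 925.8 ± 175 of 10,000 in DN-like cells (SD, n = 78 cells), 570 ± 149 in ISP-like cells and 456 ± 97.3 in DPbla-like cells. It took 836 ± 172 in DPre-like cells, 701 ± 119 in DPsel-like cells, 659 ± 123 in CD4sp-like cells and 664 ± 102 in CD8sp-like cells. By this measure DPbla-like cells had the lowest mean, and the level was lower in DPsel-like and single-positive cells than in DPre-like cells. The nuclear to mitochondrial ratio in summed values was 0.496 in DN-like cells, 1.14 in ISP-like cells, 1.11 in DPbla-like cells and 0.486 in DPre-like cells, and 0.568 to 0.670 in the 3 later stages. Thus ISP-like and DPbla-like cells lay close together by this measure and far apart in steps, and the stages from DPre-like on were alike only in steps. The study's methods state that mitochondrial RNA was removed and that cells could be dropped for high mitochondrial expression. The 13 protein genes were nonetheless in the table, and the highest share in any cell was 17.4% of summed values. How this filtering bore on the mitochondrial levels was not tested.

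Among the 89 nuclear members detected in at least 5% of cells, 54 (60.7%) had their highest share in ISP-like cells, as against 17.7% of the 7512 genes that passed the same filter. DN-like cells held the maximum of 11, DPbla-like of 9, DPre-like of 8, CD4sp-like of 4 and CD8sp-like of 3, and DPsel-like cells of none. The members left out by the filter were Cox7a1, Cox6a2 and Atp5s. Of the 13 mitochondrial genes, all of which passed, 6 were lowest in ISP-like cells and 7 in DPbla-like cells. Over all genes tested, 20.0% were lowest in ISP-like cells and 17.1% in DPbla-like cells.

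Over all depths, each nuclear complex had its highest share in ISP-like cells, though by different margins. Complex I held 126 of 10,000 steps in DN-like cells, 163 in ISP-like cells, 137 in DPbla-like cells and 125 in DPre-like cells. Complex II, which has the fewest members, held 6.02, 10.0, 8.55 and 6.83, and its intervals in ISP-like (8.70 to 11.5) and DPbla-like cells (7.72 to 9.45) overlapped. Complex III held 46.5, 62.5, 44.7 and 48.4, so that DPbla-like cells lay below DPre-like cells for this complex. This order rested on Uqcrh, since the other 7 members together held 33.2 in DPbla-like cells and 30.1 in DPre-like cells, a ratio of 0.907 (0.845 to 0.973). Complex IV held 124, 181, 141 and 122, and complex V held 124, 185, 138 and 110. In DPsel-like cells and both single-positive classes the complexes stayed within 122 to 123 for complex I, 6.04 to 6.89 for complex II, 41.8 to 46.7 for complex III, 114 to 128 for complex IV and 113 to 122 for complex V. The assembly and other factors did not share the ISP-like maximum, with 8.97 in DN-like cells, 7.24 in ISP-like cells and 8.57 in CD4sp-like cells.

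**Figure D2:**
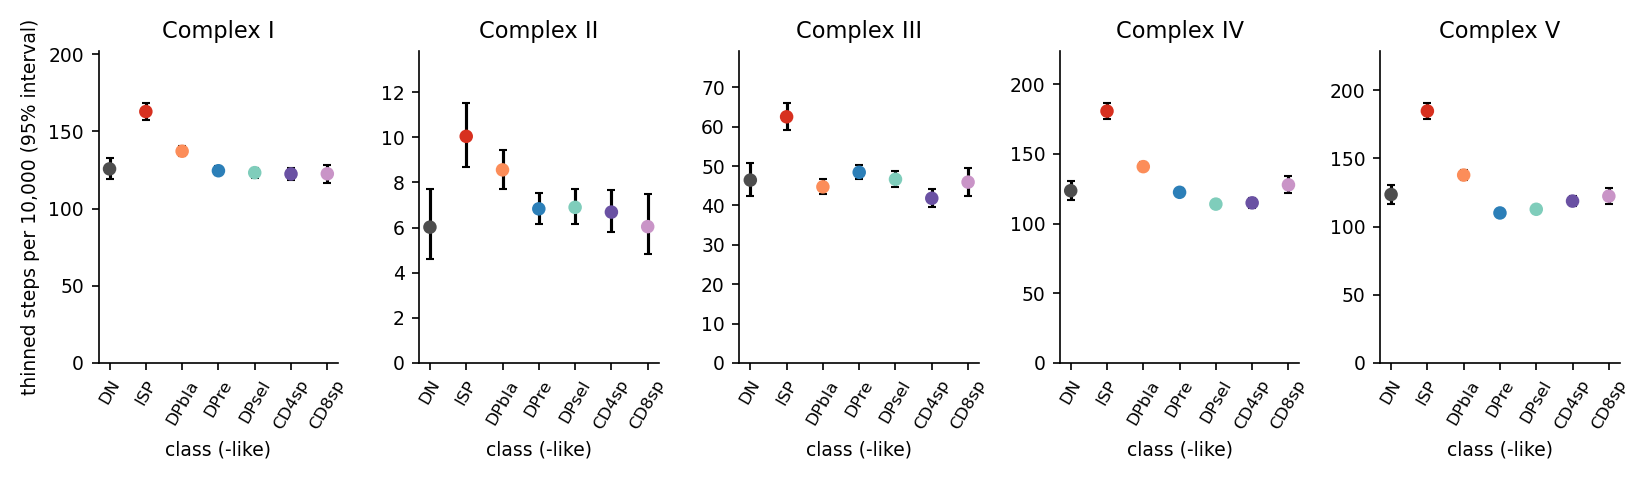
Share of each nuclear complex, in thinned steps per 10,000 with exact 95% Poisson intervals, in 7 stages. Over all depths, complexes I to V each peak in ISP-like cells, and complex V goes from 185 there to 110 in DPre-like cells.

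Depth moved with the nuclear and mitochondrial sums and was taken into account for them by binning cells on their step total. Over all cells, nuclear members held 405 of 10,000 steps in cells of 1300 to 2000 steps, 434 from 2000 to 3000, 463 from 3000 to 5000, 523 from 5000 to 10,000 and 612.4 in cells above that. The mitochondrial genome held 457, 429, 381, 326 and 286 in the same bins. Within each of the 7 stages the nuclear share was higher and the mitochondrial share lower in the deeper bins. For example, DPsel-like cells went from 394 to 443 in nuclear share between the shallowest and the 3000 to 5000 bin, and from 451 to 392.3 in mitochondrial share.

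At matched depth, ISP-like cells remained above DN-like and DPbla-like cells in nuclear share, by an amount that depended on the bin. In cells of 5000 to 10,000 steps, ISP-like cells held 584 (567 to 600.4, 63 cells), DPbla-like cells 491 (482 to 500, 187 cells) and DN-like cells 472 (435 to 510, 10 cells). Above 10,000 steps, ISP-like cells held 623 (608 to 638.2, 81 cells) and DPbla-like cells 583 (550 to 618, 15 cells), whose intervals overlapped. In cells of 2000 to 4000 steps, with only 6 ISP-like cells, the ratio of ISP-like over DN-like was 1.55 (1.41 to 1.70) and that of DPbla-like over ISP-like 0.683 (0.621 to 0.754), further from 1 than over all cells. From 3000 to 5000 steps, a bin with too few ISP-like cells, the DPbla-like level was 442 (432.3 to 452, 136 cells), beside 441 in DN-like cells (424 to 458), 461 in DPre-like cells (430 to 493, 14 cells), 443 in DPsel-like cells and 448 in single-positive cells, and these intervals overlapped.

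The mitochondrial level of DPbla-like cells was also the lowest mean at matched depth. From 3000 to 5000 steps, the mitochondrial genome took 476 ± 91.9 of 10,000 summed values in DPbla-like cells (SD, n = 136 cells), 940 ± 146 in DN-like cells, 737 ± 98.7 in DPre-like cells, 666 ± 95.4 in DPsel-like and 625 ± 81.3 in single-positive cells. From 5000 to 10,000 steps it was 445 ± 94.6 in DPbla-like cells, 631 ± 135 in ISP-like cells, 654 ± 77.8 in the 10 DN-like cells and 518 ± 101 in 14 single-positive cells. The ISP-like and DN-like levels lay within 1 SD of each other there, and so did the DPbla-like and single-positive levels. The lower mitochondrial level of ISP-like than of DN-like cells over all depths (570 against 925.8) was thus much reduced at this depth, at which only 10 of the 78 DN-like cells lie. In steps the ISP-like over DN-like ratio was 0.914 (0.829 to 1.01) there. It was 0.794 (0.700 to 0.897) in cells of 2000 to 4000 steps, with 6 ISP-like and 50 DN-like cells.

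**Figure D3:**
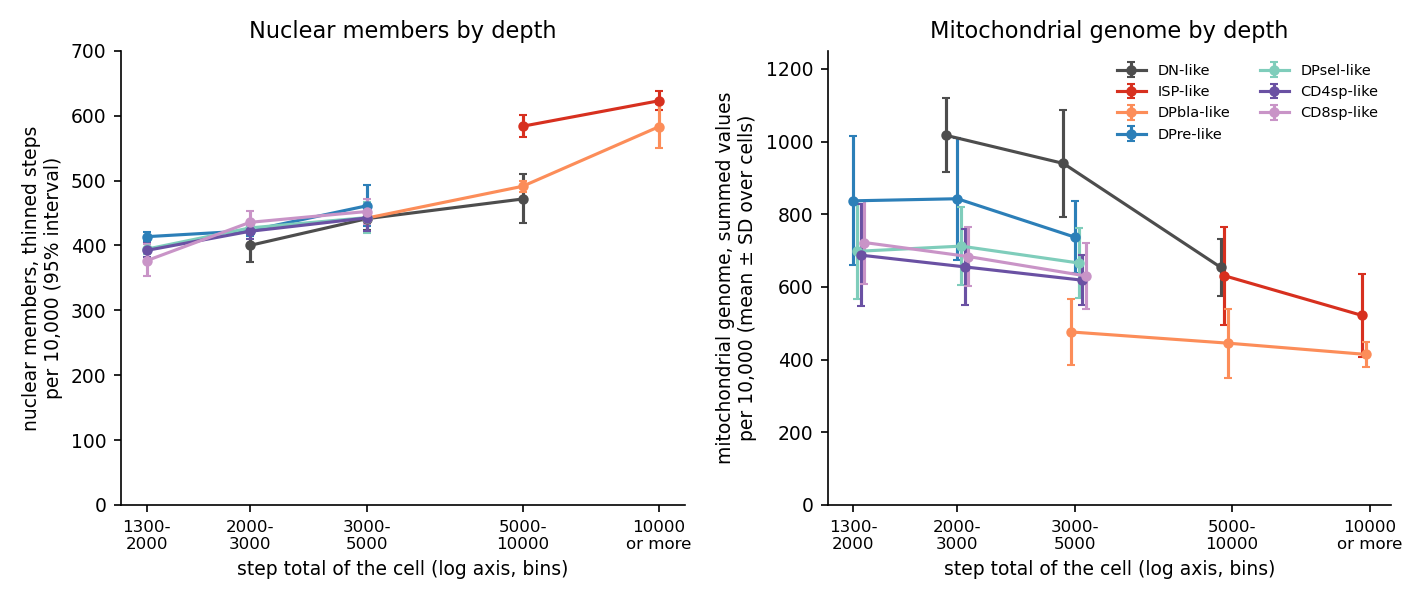
Nuclear members in thinned steps per 10,000 (left, exact 95% intervals) and the mitochondrial genome in summed normalized values per 10,000 (right, mean ± SD over cells), by bin of step total on a log axis, for 7 stages with at least 10 cells in a bin. At 5000 to 10,000 steps ISP-like cells lie above DPbla-like cells in nuclear share (584 and 491), and at 3000 to 5000 steps DPbla-like cells are lowest in mitochondrial level (476).

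DN-like and ISP-like cells differed in division, with the proliferation marker Mki67 in 19.2% and 74.7% of cells. Nuclear members as a whole were 1.40 times as high in ISP-like cells (95% interval 1.35 to 1.45), complex V 1.5 (1.4 to 1.6), complex IV 1.46 (1.37 to 1.56), complex III 1.35 (1.21 to 1.5), complex I 1.3 (1.21 to 1.38) and complex II 1.67 (1.247 to 2.26). The assembly factors were at 0.807 (0.617 to 1.06) and the mitochondrial genome at 0.702 (0.676 to 0.730). A gene was called higher or lower where its share was at least 25% higher or 20% lower. By this rule, 55 of 89 nuclear members were higher and 10 lower, and 1 mitochondrial gene was higher and 11 lower. Among all 7512 genes tested, 36.1% were higher and 41.7% lower. With the count limited to genes detected in at least 50% of cells, 49 of 67 nuclear members were higher and 3 lower, and 9 of 10 mitochondrial genes were lower, against 42.4% higher and 24.8% lower of 793 genes. The median ratio was 1.38 over nuclear members, 0.696 over mitochondrial genes and 0.954 over all genes. At 5000 to 10,000 steps the nuclear ratio was 1.24 and the mitochondrial ratio 0.914.

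Within complex I, Ndufab1, the mitochondrial acyl carrier protein, went from 2.27 to 5.49 of 10,000 steps, a ratio of 2.42 (1.53 to 3.98), while Ndufa6 and Ndufa7 were near 1 (0.933 and 1.06). The members of highest share in this complex, Ndufa2, Ndufa3 and Ndufa13, went from 8.28 to 9.79, from 6.02 to 8.74 and from 5.82 to 6.54. Sdhb, the iron-sulfur subunit of complex II (chr4:140961203-140979193), was at 1.58 in DN-like cells and 5.00 in ISP-like cells, a ratio of 3.17 (1.86 to 5.75). The other subunits of that complex were closer, with Sdhd at 1.58 and 2.20 and the catalytic Sdha at 1.38 and 1.249. Most of the difference in complex II lay in Sdhb.

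In complex III, Uqcr10 and Uqcrq were higher in ISP-like cells at ratios of 2.12 and 1.83, and Uqcrh, the hinge protein, was lower at 0.796 (0.651 to 0.976). Complex IV held genes far apart in both directions. Cox7b (chrX:106015700-106022450) was at 2.66 in DN-like cells and 10.9 in ISP-like cells, a ratio of 4.09 (2.73 to 6.35), with a log2 mean of 0.95 ± 0.79 and 2.25 ± 0.43 (SD over cells). Cox7a2 had a ratio of 2.23, Cox6a1 of 2.03 and Cox5a of 1.96, whereas Cox4i1 was alike at 19.2 and 18.9. Cox6b2, an isoform best known from testis, was at 2.47 in DN-like cells and 0.40 in ISP-like cells, a ratio of 0.162 (0.0632 to 0.371). All 15 complex V members had a ratio above 1, 13 of them by 25% or more, led by the c-ring gene Atp5g3 at 2.34. The assembly factors of extreme ratio, Ndufaf6 and Sdhaf3 upward and Ndufaf1 and Atp5sl downward, each had a share under 1 in both stages, and the intervals of Ndufaf6 (0.543 to 180) and Sdhaf3 (0.455 to 160) included 1.

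The next step, from ISP-like to DPbla-like cells, went the other way for nuclear genes. Nuclear members were at 0.782 of the ISP-like share (0.765 to 0.8), with complex III at 0.715, complex V at 0.746, complex IV at 0.779, complex I at 0.842 and complex II at 0.852 (0.717 to 1.02). The mitochondrial genome was at 1.03 in steps (0.998 to 1.06) and at 0.801 in summed values. By the same rule, 7 nuclear members were higher and 44 lower, and 5 mitochondrial genes were lower, beside 34.5% higher and 33.6% lower of all genes tested. Among genes in at least 50% of cells, 1 nuclear member was higher and 36 of 67 lower, and 3 of 10 mitochondrial genes lower, beside 25.7% and 28.0% of all such genes. The median ratio was 0.810 over nuclear members and 1.00 over all genes. Within 5000 to 10,000 steps the nuclear ratio was 0.841.

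Members of complex V parted at this step. Atp5g1 went from 11.0 to 3.58 of 10,000 steps, a ratio of 0.324 (0.263 to 0.399), with a log2 mean of 2.32 ± 0.47 and 0.97 ± 0.75. Atp5e, the epsilon subunit, had a ratio of 0.598 and Atp5l of 0.606. Atp5h (18.3 and 20.1) and Atp5o (7.24 and 7.14) were alike in both. Cox7c was at 21.8 and 15.1, Cox6a1 at 12.4 and 11.9, and Uqcrq at 10.1 and 6.23. Ndufaf3 (2.83, 1.44 to 6.19) and Sdhaf2 (2.80, 1.18 to 8.11) had the highest ratios, from shares of 0.50 and 0.30. Ndufaf4 had a ratio of 0.246, and mt-Nd6, the only protein gene on the other strand of the mitochondrial genome, one of 0.184 (0.0509 to 0.562) from a share of 0.60.

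Mki67 was found in 87.5% to 96.0% of cells in the 3 DPbla-like clusters and in 9.21% and 10.1% in the DPre-like clusters. The nuclear share was 0.88 times as high (0.864 to 0.897), with complex V at 0.798 (0.770 to 0.827), complex II at 0.798, complex IV at 0.869, complex I at 0.908 and complex III at 1.08 (1.02 to 1.15), or 0.907 without Uqcrh. The nuclear ratio was nearer 1 at matched depth, at 1.04 (0.970 to 1.12) in cells of 3000 to 5000 steps, with 14 DPre-like cells, and 0.954 (0.912 to 0.998) in cells of 2000 to 4000 steps, with 185 DPre-like and 40 DPbla-like cells. The mitochondrial genome was 1.38 times as high in steps (1.35 to 1.41) and 1.83 times in summed values. The ratio in steps was also nearer 1 at matched depth, at 1.19 (1.134 to 1.253) from 2000 to 4000 steps and 1.11 (1.024 to 1.202) from 3000 to 5000 steps. By the same rule, 13 nuclear members were higher and 34 lower, and 10 mitochondrial genes were higher and none lower, beside 45.4% higher and 24.1% lower of all genes tested. Of genes in at least 50% of cells, 9 nuclear members were higher and 30 of 67 lower, and 8 of 10 mitochondrial genes higher, beside 31.8% and 27.6% of all such genes. The median ratio was 0.864 over nuclear members, 1.38 over mitochondrial genes and 1.17 over all genes.

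Cox7a2l, a factor that joins complexes III and IV into supercomplexes (chr17:83501918-83517330), stood apart from the rest of complex IV. Its share was 14.1 in DN-like cells, 8.44 in ISP-like cells, 7.36 in DPbla-like cells and 15.8 in DPre-like cells, and 11.6 to 14.9 later. It was lower in ISP-like than in DN-like cells, at 0.599 (0.476 to 0.753), and higher in DPre-like than in DPbla-like cells, at 2.15 (1.89 to 2.45). Cox8a followed the opposite course over the same stages with 12.5, 20.7, 17.5 and 9.58, and its DPre-like over DPbla-like ratio was 0.547 (0.490 to 0.612). Atp5j, coupling factor 6, was at 8.19, 13.7, 11.6 and 6.25, with a ratio of 0.541 at this step. Uqcrh was at 15.9, 12.6, 11.5 and 18.3, the highest in DPre-like cells. Ndufa6, an accessory subunit of complex I, was 1.64 times as high in DPre-like as in DPbla-like cells. Atp5sl had a ratio of 3.80 (1.55 to 11.2) and Ndufaf6 one of 0.136 (0.0148 to 0.610), both from shares under 1.

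**Figure D4:**
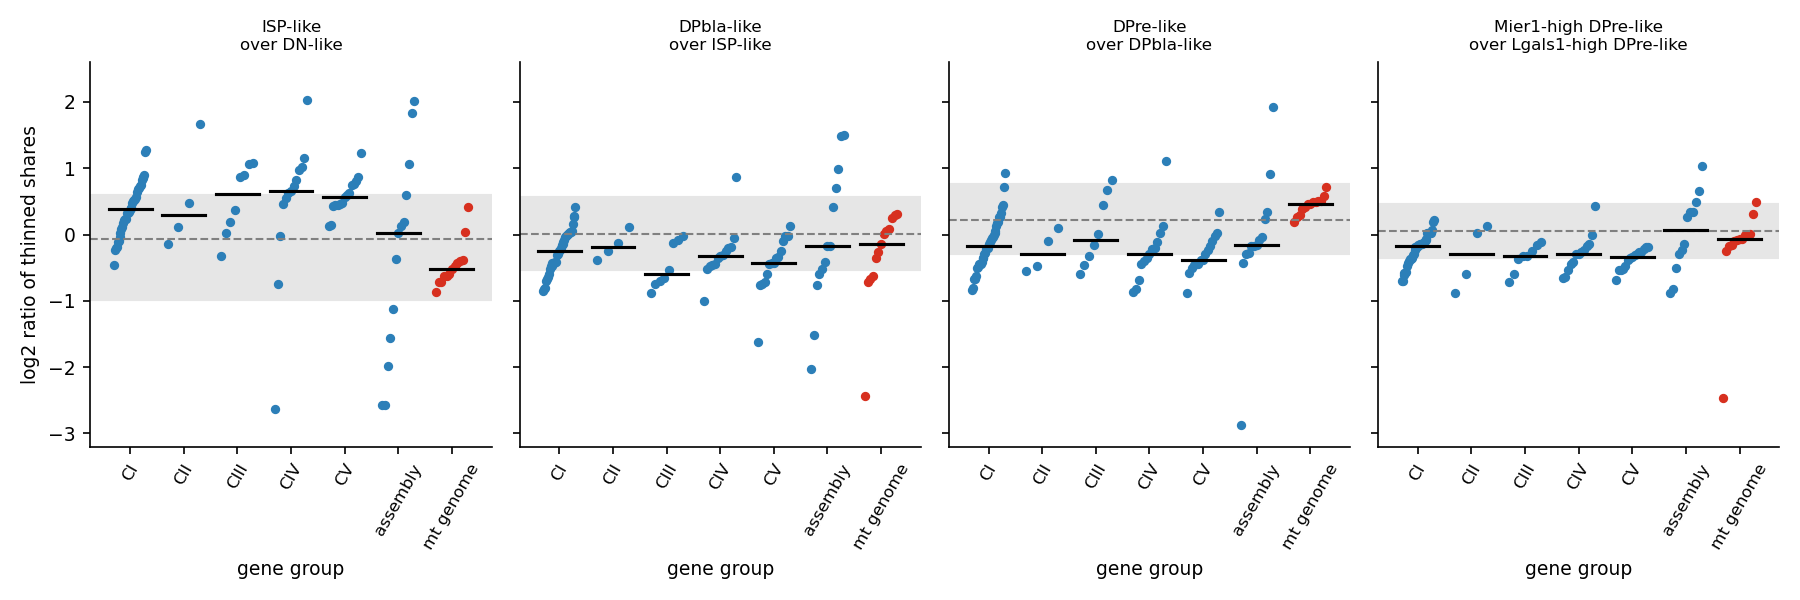
Log2 ratio of the thinned shares for every member that passed the filter, by group, in 3 comparisons of neighbouring stages and in that of the DPre-like clusters. Each point is a gene, the black bar the group's median, the grey band the quartiles of all 7512 genes tested and the dashed line their median, and Ndufaf5, at a ratio of 0 in the last comparison, is not drawn. Complex V lies wholly above 0 in the first panel and the mitochondrial genome above 0 in the third.

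The DPre-like class held 2 clusters of like depth, with median step totals of 1925 and 1946, which makes them the comparison least touched by depth. This comparison was chosen after the clusters were seen. The cluster with the higher Lgals1 (mean log2 2.37 against 1.245) and that with the higher Mier1 (2.16 against 1.40) shared the 427 cells, 188 of them in the Mier1-high cluster. Nuclear members held 456 of 10,000 steps in the Lgals1-high and 371 in the Mier1-high cluster, a ratio of 0.814 (0.792 to 0.835). Complex V was at 0.778, complex IV at 0.803, complex III at 0.811, complex I at 0.844 and complex II at 0.851 (0.689 to 1.05), while the assembly factors were at 1.06 (0.856 to 1.31). The mitochondrial genome was at 0.939 in steps (0.915 to 0.963) and at 0.970 in summed values.

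By the same rule, 6 nuclear members were higher in the Mier1-high cluster and 35 lower, with 1 mitochondrial gene each way, beside 34.4% higher and 26.8% lower of all genes tested. Among genes in at least 50% of cells, none of the 67 nuclear members was higher and 29 were lower, and none of 10 mitochondrial genes was called, beside 10.1% higher and 25.0% lower of all such genes. The median ratio was 0.833 over nuclear members and 1.04 over all genes tested. Ndufa4 went from 7.89 in the Lgals1-high to 4.99 in the Mier1-high cluster, Cox6a1 from 10.7 to 6.87, Atp5g1 from 3.83 to 2.37 and Uqcrq from 5.34 to 3.52. Cox7a2 (8.88 and 8.80) and Sdhb (2.74 and 2.78) were alike. The 6 genes of extreme ratio here were Ndufaf5, mt-Nd6 and Sdhaf3 downward and Sdhaf4, Ndufaf3 and mt-Nd4l upward. All 6 had intervals that included 1. The clusters were formed on the other genes of these same cells, so their members' values describe them and are no test.

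From DPre-like to DPsel-like cells the nuclear sum differed little, at 0.981 (0.962 to 1.00), with complex IV at 0.931 (0.898 to 0.965) and the other complexes between 0.964 and 1.02. The mitochondrial genome was at 0.991 in steps (0.972 to 1.01) but at 0.839 in summed values. By the same rule, 14 nuclear members were higher and 19 lower, and 2 mitochondrial genes were higher and 1 lower, beside 28.4% and 30.3% of all genes tested. In genes of at least 50% of cells, 9 nuclear members were higher and 12 lower, and 1 mitochondrial gene each way, beside 22.1% and 20.7%. Single genes moved in both directions within the same complex. Atp5g1 was 1.83 times as high (1.51 to 2.23) and Atp5g3 1.41 times, while Atp5h was at 0.741 and the catalytic alpha subunit Atp5a1 at 0.684. Uqcrq was at 1.65 and Uqcrh at 0.791. Among genes of low share, Ndufs1 was at 0.376, Cox6b2 at 0.246 and Ndufaf7 at 0.615 (0.189 to 1.77), and Ndufaf4 was at 2.87 and Ndufaf6 at 1.85 (0.211 to 22.1).

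Single-positive cells resembled DPsel-like cells in the sums, with a nuclear ratio of 1.02 (0.999 to 1.04), a mitochondrial ratio of 1.01 (0.987 to 1.03) in steps and 0.942 in summed values. Complex V was at 1.06 (1.02 to 1.1) and complex III at 0.923 (0.868 to 0.982). By the same rule, 10 nuclear members were higher and 6 lower and 1 mitochondrial gene was called each way, beside 23.9% and 30.4% of all genes tested. Among genes in at least 50% of cells, 4 nuclear members were called each way and no mitochondrial gene was, beside 12.1% and 19.7%. Atp5g2 was 1.42 times as high (1.22 to 1.66) and Cox8a 1.28 times (1.12 to 1.46). The genes of extreme ratio were of low share, namely Ndufaf6 at 2.97, Ndufs1 at 2.16, mt-Nd6 at 1.69, Atp5sl at 0.645, mt-Nd4l at 0.663 and Ndufaf2 at 0.670. CD4sp-like and CD8sp-like cells were close for nuclear members, at 413 (406.1 to 420) and 431 (420.2 to 442).

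Isoforms and gene families gave different courses for proteins of like role. The 3 genes for subunit c, which form the rotating ring of the ATP synthase, make the same mature protein from different precursors. Atp5g1 had shares of 6.31 in DN-like cells, 11.0 in ISP-like cells, 3.58 in DPbla-like cells, 3.19 in DPre-like cells, 5.83 in DPsel-like cells, 6.15 in CD4sp-like cells and 6.61 in CD8sp-like cells. Atp5g2 had 11.4, 15.8, 9.35, 6.86, 6.38, 8.95 and 9.42, and Atp5g3 had 4.34, 10.1, 6.70, 4.47, 6.30, 5.55 and 4.74. All of them were highest in ISP-like cells. Atp5g1 was lowest in DPbla-like and DPre-like cells and Atp5g2 in DPre-like and DPsel-like cells. Atp5g3 was lowest in DN-like cells (3.15 to 5.83), an interval that overlapped those of DPre-like, DPsel-like and single-positive cells.

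Of the cytochrome c oxidase isoforms, Cox4i1 was detected in 97.9% of cells and lay between 15.2 and 19.2 in all 7 stages. Cox6a1 was detected in 89.0% of cells and its heart and muscle isoform Cox6a2 in 1.05%. Cox6b1, in 93.6% of cells, lay between 10.1 and 13.8, and Cox6b2, in 16.3%, had its highest share in DN-like cells (2.47) and was at most 0.73 in the others. Cox7a2, in 88.2% of cells, was highest in ISP-like cells at 15.2, Cox7a2l was lowest in DPbla-like cells, and the muscle isoform Cox7a1 was in 4.16%. Ndufa4, which sits in complex IV despite its name, was at 8.28 in DN-like cells, 14.7 in ISP-like cells, 10.6 in DPbla-like cells and 6.61 in DPre-like cells. Cox4i2, Cox8b, Cox8c and Ndufa4l2 were not among the genes of the table.

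Of the 14 assembly and other factors, 13 passed the filter. Ndufaf8 was at 2.07 in DN-like and 1.33 to 1.61 in later stages. Ndufaf2 was highest in ISP-like cells at 1.45 and at most 0.69 in the others. Ndufaf4 was near 0.8 to 0.9 in DN-like and ISP-like cells (0.789 and 0.899), at 0.221 in DPbla-like cells, 0.216 in DPre-like cells and 1.04 in CD4sp-like cells. Sdhaf1 and Sdhaf4, which help build complex II, were highest in CD4sp-like cells at 1.48 and 1.07, and Sdhaf2 was lowest in ISP-like cells at 0.30. Ndufaf3 was highest in DPbla-like cells at 1.41. The shares of Ndufaf1, Ndufaf5, Ndufaf6, Ndufaf7 and Sdhaf3 did not exceed 0.60 in any stage, a level at which few steps support a ratio.

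The 13 mitochondrial genes did not move as one. In deposited log2 values, mt-Co1, the catalytic subunit of complex IV, was at 5.34 in DN-like cells, 4.45 in ISP-like cells, 4.46 in DPbla-like cells, 5.26 in DPre-like cells, 4.60 in DPsel-like cells, 4.57 in CD4sp-like cells and 4.65 in CD8sp-like cells. The SD over cells was 0.40 in DN-like cells, 0.51 in ISP-like cells and 0.58 in DPre-like cells. By contrast mt-Nd1, of complex I, was at 4.20, 4.67, 3.86, 3.89, 4.26, 4.33 and 4.43, so that it was higher in ISP-like than in DN-like cells. These log2 means were not matched for depth. In steps mt-Nd1 was at 41.2 in DN-like cells and 42.4 in ISP-like cells (ratio 1.03, 0.914 to 1.16), and mt-Co1 at 67.5 and 41.0 (0.608, 0.549 to 0.674).

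The other genes of complex IV in this genome were close to mt-Co1 in their course. mt-Co2 was at 4.77 in DN-like cells, 4.14 in ISP-like cells, 3.84 in DPbla-like cells, 4.38 in DPre-like cells and 4.08 in DPsel-like cells, and mt-Co3 was at 5.85, 5.40, 5.01, 5.60 and 5.24. mt-Atp6 was at 5.95, 5.57, 5.05, 5.68 and 5.46, mt-Cytb at 4.93, 4.22, 3.95, 4.51 and 4.47, and mt-Nd4 at 3.80, 3.24, 2.97, 3.30 and 3.29. All 5 were lowest in DPbla-like cells in log2 value. mt-Nd2 (3.18, 2.67, 2.19, 2.11 and 2.40) and mt-Nd3 (1.98, 1.87, 1.31, 1.08 and 1.48) were lowest in DPre-like cells of these 5 stages in log2 value, and mt-Nd5 was at 1.12, 0.87, 0.58, 0.57 and 0.62. In thinned shares, taken from the same number of steps in every cell, these 3 genes went the other way from DPbla-like to DPre-like cells, with mt-Nd2 at 10.7 and 15.2 (ratio 1.42, 1.27 to 1.59), mt-Nd3 at 5.33 and 6.54 (1.23, 1.04 to 1.45) and mt-Nd5 at 2.48 and 3.31 (1.34, 1.05 to 1.71). The genes of low value were mt-Atp8 (0.34 in DN-like cells and 0.23 in DPbla-like cells), mt-Nd4l (0.18 and 0.15) and mt-Nd6 (0.08 and 0.04). In shares, all 13 genes had a DPre-like over DPbla-like ratio above 1, from 1.14 for mt-Nd1 to 1.65 for mt-Atp8.

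**Figure D5:**
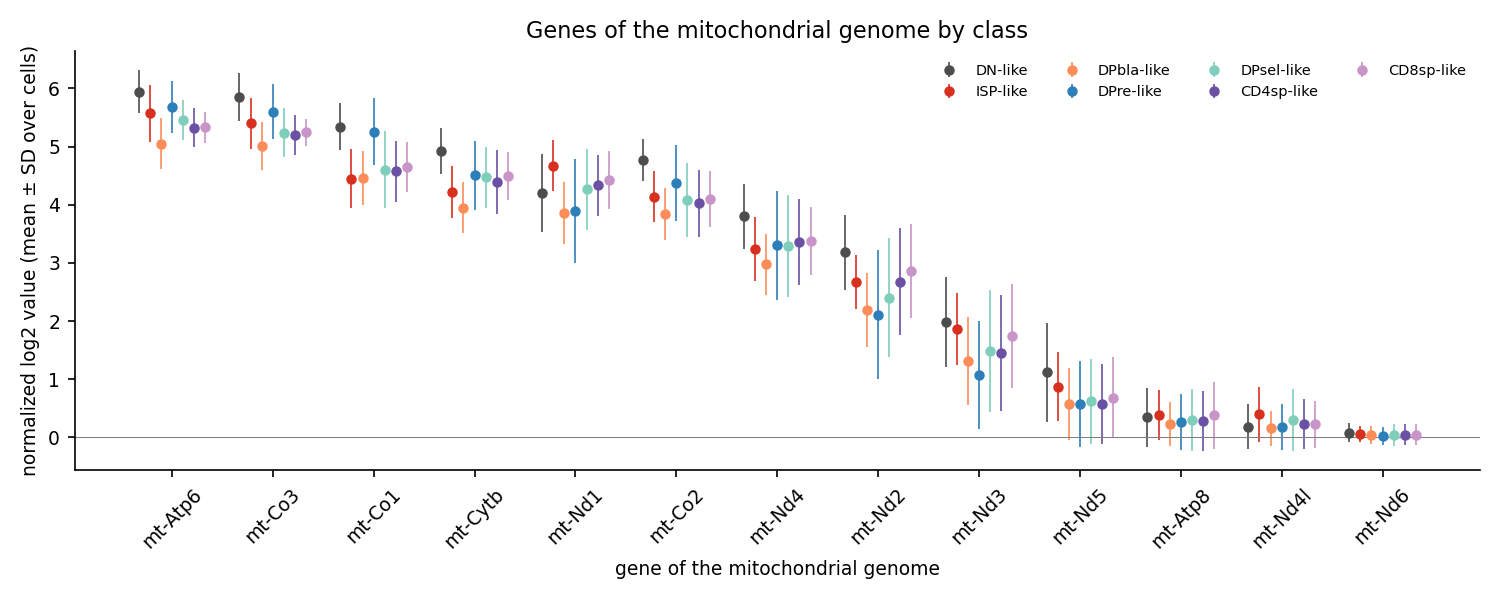
Deposited log2 value of each of the 13 genes of the mitochondrial genome in 7 stages (points, means; bars, SD over cells). mt-Co1 is at 5.34 in DN-like cells and 4.45 in ISP-like cells, while mt-Nd1 is at 4.20 and 4.67.

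Other genes of the pathway were taken from lists drawn up by role. Of 9 electron carriers and subunits outside the name rule, 6 were higher in ISP-like than in DN-like cells by the same rule and 1 lower, and 5 were lower and 2 higher in DPbla-like than in ISP-like cells. The shares over all genes tested were 36.1% higher and 41.7% lower in the first comparison and 34.5% higher and 33.6% lower in the second. Cycs, cytochrome c, was at 2.47 in DN-like cells, 9.74 in ISP-like cells, 5.17 in DPbla-like cells and 2.41 in DPre-like cells, and Cyc1, cytochrome c1 of complex III, was at 1.48, 3.65, 2.37 and 1.95. Of 5 genes for carriers of the inner membrane and the inhibitor of the ATP synthase, 3 were higher in ISP-like than in DN-like cells and 1, the uncoupling protein Ucp2, lower, beside the same 36.1% and 41.7%, and 4 were lower in DPbla-like cells, beside 33.6% of all genes. The ADP/ATP carrier Slc25a5 was at 10.7 in DN-like cells, 18.1 in ISP-like cells, 10.6 in DPbla-like cells and 15.3 in DPre-like cells, and the ATPase inhibitor Atpif1 was at 7.50, 9.59, 7.52 and 5.35, and at 3.44 in CD4sp-like cells and 3.45 in CD8sp-like cells.

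Of 12 genes for mitochondrial DNA and RNA, 9 passed the filter. Of these, 3 were higher and 2 lower in ISP-like than in DN-like cells (36.1% and 41.7% of all genes), and 1 was higher and 6 lower in DPbla-like than in ISP-like cells (34.5% and 33.6% of all genes). In DPre-like over DPbla-like, 5 were higher and 1 lower, where 45.4% and 24.1% of all genes were. Tfam, which packages and transcribes mitochondrial DNA, was at 0.49 in DN-like cells (0.160 to 1.15), 1.5 in ISP-like cells (1.01 to 2.14) and 1.11 in DPbla-like cells. Slirp, which binds mitochondrial messenger RNA, was at 2.76, 3.75, 2.03 and 1.39 from DN-like to DPre-like cells. Of 17 further assembly genes, 9 were higher and 5 lower in ISP-like than in DN-like cells, and of 15 citric acid cycle genes 6 were higher and 3 lower, beside 36.1% and 41.7% of all genes, so that the citric acid cycle count of higher genes lay near the background. The citric acid cycle list was lower in 9 and higher in 1 of 15 in single-positive than in DPsel-like cells, beside the 30.4% and 23.9% of all genes.

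Regulators were of low share, and their count of calls in ISP-like over DN-like is not given because Gabpb1 and Esrra were at 0 thinned steps in DN-like cells. Nrf1 was at 0.0986 in DN-like cells (0.00250 to 0.549), 0.80 in ISP-like cells, 1.17 in DPbla-like cells and 0.94 in DPre-like cells. Myc, a growth regulator, was at 2.17 in DN-like cells (1.36 to 3.28), 2.20 in ISP-like cells (1.60 to 2.95), 0.24 in DPbla-like cells and 0.29 in DPre-like cells.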

How the data were processed

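Thymocytes were captured with the 10x Genomics 3′ V2 kit and sequenced by the authors, who aligned reads to GRCm38.p5 with Cell Ranger 1.3.1, removed ribosomal RNA, mitochondrial RNA and pseudogenes, filtered cells and genes, applied quantile normalization across cells and deposited log2 values. Of the 1993 cells, 1986 lay within the study's limits of 500 to 4500 detected genes. All were kept, at 830 to 5025 detected genes and 1356 to 22539 steps a cell. Molecule counts were not used here.

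Members and lists were chosen with earlier results of these data known. Clusters came from Seurat 5.3.0 in R 4.3.3 (1285 variable genes without members, 20 components, 30 neighbours, resolution 2). A cluster took the name of the marker list with the highest score, and ISP or DPbla only with Mki67 in at least 50% of cells. Doublets were not called. Steps were thinned to 1300 a cell in Python 3.11.15 with numpy 2.4.6, and tested on simulated data. Intervals are exact Poisson for shares and exact conditional binomial for ratios, at 95%. A gene was called at a ratio of at least 1.25 or at most 0.8 if detected in at least 5% of cells. Named genes were every mitochondrial gene, the 3 of highest share in each complex, the 3 highest and 3 lowest ratios in each comparison and isoform families, and others named were chosen after their values were seen. Among these, 1 gene is not reported here. Alternatives were other thinning, filters, folds, clusterings, depth windows and summed values. Single-cell libraries of 1 sample allow no test between stages. Gene positions came from GENCODE on GRCm38 and promoters from RefSeq on GRCm38.p6. A promoter stretch was printed only with at most 30 bases inside the GENCODE gene.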

Additional observations from a re-analysis of the deposited data

How the results depend on the processing

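Of the 174 values recomputed under alternatives, 113 stayed within the intervals or 1.5 times the count of the value reported, 60 moved and 1 reversed, the latter meaning that a ratio whose interval did not include 1 came to lie on the other side of it, and the causes of those changes were not tested. The ratios follow in the order ISP-like over DN-like, DPbla-like over ISP-like, DPre-like over DPbla-like, DPsel-like over DPre-like, single-positive over DPsel-like and Mier1-high over Lgals1-high DPre-like, named where a setting moved only some. Among the ratios that moved, the mitochondrial ratio of DPbla-like over ISP-like, reported at 1.03 (0.998 to 1.06), lay below 1 under 5 settings, and that of single-positive over DPsel-like, reported at 1.01 (0.987 to 1.03), under 2. Without thinning, the nuclear ratio was 0.855 for DPre-like over DPbla-like and 1.04 for single-positive over DPsel-like. With a gene's steps capped at 10, which by construction holds down genes above that limit, the first 3 nuclear ratios were 1.23, 0.903 and 0.849, and the first 5 mitochondrial ratios were 0.483, 1.40, 2.02, 1.02 and 0.954.

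In cells of 2000 to 4000 steps, a window with 6 ISP-like cells, the first 4 nuclear ratios were 1.55, 0.683, 0.954 and 1.00 and that of the DPre-like clusters 0.767. The mitochondrial ratios there were 0.794, 0.986 and 1.19 for the first 3 and 1.03 for single-positive over DPsel-like, with 34 of 102 members called in the latter, where 63.6% of all genes were. With members kept in the clustering, DPre-like over DPbla-like was 0.912 (nuclear) and 1.34 (mitochondrial), and DPsel-like over DPre-like 0.951 and 1.02. At cluster resolution 1, the first 2 ratios were 1.34 and 0.823 (nuclear) and 0.767 and 0.940 (mitochondrial). At a fold of 1.5, the counts of members called, of 102, were 48, 30, 19, 12, 5 and 16, where 61.1%, 48.1%, 49.7%, 36.4%, 30.0% and 35.9% of all genes were called.

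The alternatives that follow, and leaving single members out of a complex, were chosen after seeing the data. In genes of at least 50% of cells, 23 of 77 members were called in DPsel-like over DPre-like (22.1% of all such genes higher and 20.7% lower) and 8 in single-positive over DPsel-like (12.1% and 19.7%). With all clusters named by their best score, the first 2 nuclear ratios were 1.34 and 0.827 and the first 3 mitochondrial ratios 0.765, 0.969 and 1.34. In cells of 3000 to 5000 steps, the nuclear ratio of DPre-like over DPbla-like reversed to 1.04, with an interval (0.970 to 1.12) that includes 1, and that of DPsel-like over DPre-like was 0.961, with mitochondrial ratios of 1.11, 1.05 and 1.04 from DPre-like over DPbla-like onward and 66 and 51 of 102 members called in the last pair of stage comparisons, where 69.9% and 77.9% of all genes were. In cells of 5000 to 10,000 steps, the first 2 ratios were 1.24 and 0.841 (nuclear) and 0.914 and 0.937 (mitochondrial). With summed normalized values, the nuclear ratios were 0.802 for DPre-like over DPbla-like, 1.05 for single-positive over DPsel-like and 0.780 for the DPre-like clusters, and the 6 mitochondrial ratios 0.615, 0.801, 1.83, 0.839, 0.942 and 0.970.

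Limits: the library is 1 sample, steps are ranks, and depth differed between stages. Depth windows were used where at least 10 cells of each class fell in them, apart from the 2000 to 4000 window. The DPre-like clusters were not recomputed under other clusterings. The setting meant to leave out ribosomal protein genes and the mitochondrial genome left out only the latter, since 0 ribosomal protein genes were in the table, and its 6 nuclear ratios were 1.38, 0.783, 0.891, 0.98, 1.02 and 0.811. Leaving out the 5% of cells with most detected genes kept 1889 cells. No paired analysis was possible because there is 1 library with no replicates.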

Other observations

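The 2 unnamed clusters of dividing cells, which did not enter the main comparisons, were high in nuclear members and intermediate in mitochondrial genes. Cluster 7, of 150 cells with Mki67 in 66.7% and led by Hmgb2, Pclaf, H2afz and Dut, held 554.7 of 10,000 thinned steps in nuclear members (95% interval 544 to 565) and 368 in the mitochondrial genome (359 to 377). Cluster 13, of 71 cells with Mki67 in 56.3% and led by Hmgb2, Cenpa and Hmgb1, held 506 (491 to 520) and 371 (358 to 383). Their summed mitochondrial values were 641 ± 205.9 and 629 ± 195.2. In cells of 3000 to 5000 steps the nuclear share was 526 in cluster 7 (73 cells) and 499 in cluster 13 (22 cells), beside 442 in DPbla-like cells.

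Of the cells of other lineages, NCL-like cells lay above all stages in mitochondrial steps, whereas APC-like cells did not. The 31 NCL-like cells held 496 of 10,000 steps in the mitochondrial genome (474 to 518) and 408 in nuclear members (389 to 429), a nuclear to mitochondrial ratio of 0.824. In summed values their mitochondrial level was 736 ± 136 (SD over cells), below the 925.8 of DN-like and 836 of DPre-like cells, so the order of the classes differed between these measures. The 36 APC-like cells held 431 (412 to 450.2) and 432.5 (414 to 452), with 571 ± 248 in summed mitochondrial values, and varied more between cells, with an SD of 153 in the per-cell mitochondrial share against 47.8 to 94.4 in the 8 other named classes.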
